A study of Mus musculus with 20 samples.

Results

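The cytoplasmic ribosomal protein genes were described here in kidney RNA of normal and Hyp mice fed a control or a low phosphate diet. Members were the probe sets that the platform annotation assigned to a single gene whose symbol starts with Rpl or Rps and a digit, or is Rplp0, Rplp1, Rplp2 or Rpsa, with the Rps6k kinases left out. This rule gave 49 probe sets of 35 genes, out of 12422 gene probe sets of 8251 genes. The large subunit had 22 probe sets of 17 genes, and the small subunit had 27 probe sets of 18 genes. No measured value entered the rule. A further 39 probe sets name a ribosomal protein gene together with other genes and are not members, which is why Rplp1, Rplp2, Rpl3, Rpl5, Rpl10, Rpl11, Rps6 and Rps27a were not analysed here as members.

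Each of the 20 arrays held RNA pooled from 3 mice, and all mice were of the C57BL/6J strain per the labels. Both genotypes, normal and Hyp, were fed either the control or the low phosphate diet, which gave 4 groups of 5 arrays each. Hyp mice carry a mutation of Phex, an X-linked gene, and serve as a mouse model of that human disease, X-linked hypophosphatemia, in which the kidney wastes phosphate. Each group had 3 arrays from males and 2 from females. Mice were fed for 3 days (8 arrays) or 5 days (12 arrays), and ages are not given in the labels. By their numbers, sex and days the arrays fall into 6 sets. Arrays 1 to 4 (males, 5 days), 5 to 8 (females, 5 days), 11 to 14 (males, 3 days) and 15 to 18 (females, 3 days) each held 1 array of every group. Arrays 9 and 10 (males, 5 days) were both Hyp, and arrays 19 and 20 (males, 5 days) were both normal. Because the pools were whole kidney RNA, fewer cells of a type and less RNA per cell cannot be told apart.

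The cytoplasmic ribosome is built from a large and a small subunit, each a core of ribosomal RNA covered by proteins that are made in matched amounts. The messages of ribosomal proteins are among the most abundant in any cell, and most begin with a run of pyrimidines at their first bases, the terminal oligopyrimidine (TOP) element, through which growth signals set how strongly they are translated. In the kidney, as in other organs, their level is usually taken as a reference that changes little, and several of them serve as loading controls.

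The start regions of some member genes are shown because the pyrimidine run at the start is the sequence feature by which this family is best known. RefSeq's promoter table (GRCm38.p6, mouse) matched 28 of the 35 genes. Each line holds 20 bases before and 20 bases after the annotated start, 5′ to 3′ on the gene's strand, and capitals mark an unbroken run of C and T of 7 or more bases that holds the start or begins within 3 bases of it.
Rps18, chr17:33955646-33955685, minus strand: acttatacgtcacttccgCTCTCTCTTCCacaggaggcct
Rps10, chr17:27635225-27635264, minus strand: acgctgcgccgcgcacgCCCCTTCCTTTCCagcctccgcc
Rps27, chr3:90213629-90213668, minus strand: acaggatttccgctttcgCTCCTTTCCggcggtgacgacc
Rps24, chr14:24490658-24490697, plus strand: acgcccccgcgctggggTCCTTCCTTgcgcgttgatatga
Rpl7a, chr2:26910787-26910826, plus strand: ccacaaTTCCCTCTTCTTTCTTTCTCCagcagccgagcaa
Rpl13a, chr7:45128726-45128765, minus strand: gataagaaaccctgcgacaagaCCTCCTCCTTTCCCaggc
Rps28, chr17:33824543-33824582, minus strand: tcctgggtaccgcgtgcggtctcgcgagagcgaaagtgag
Rps3, chr7:99483690-99483729, minus strand: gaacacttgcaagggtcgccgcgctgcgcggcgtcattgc
Rpl22, chr4:152324416-152324455, plus strand: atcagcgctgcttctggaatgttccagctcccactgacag

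Such a run stood at the annotated start of 7 of the 28 member genes (25%), namely the 6 with capitals above and Rpl38, and of 7.9% of the 27025 genes in the table. Rps28, Rps3 and Rpl22, whose values are described below, had none within these letters. The minimum length, the distance from the start and the use of the most upstream annotated start were set after the sequences had been seen, and a start that is annotated too far upstream moves the run out of this window.

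An Ets core (CCGGAA, either strand) was found in the 300-base windows of 15 of the 28 member genes (53.6%) and of 15.2% of all genes. Ets factors are transcription activators that bind this core. A pair of windows with it is shown as the 60 bases before and 20 bases after the start, with the core in capitals.
Rps3a1, chr3:86142649-86142728, minus strand: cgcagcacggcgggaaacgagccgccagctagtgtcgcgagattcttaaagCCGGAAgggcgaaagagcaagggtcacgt
Rpsa, chr9:120127706-120127785, plus strand: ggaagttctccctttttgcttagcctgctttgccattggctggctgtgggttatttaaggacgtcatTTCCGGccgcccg

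The YY1 core (AAGATGG, either strand) was present in 7 member genes (25%) against 6.46% of all genes, and the GC box (GGGCGG, either strand) in 16 (57.1%) against 35.9%. The TATA box letters (TATAAA, either strand) occurred in 4 (14.3%) against 14.2% of all genes. These are counts of letters in a window, and no binding was measured.

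All 11 probe sets of the 10 kidney marker genes present passed the filter on low values (given below), with intensities of 8769.5 to 17166 for Slc34a1, the proximal tubule phosphate transporter, and 7434 to 12084 for Umod of the thick ascending limb. Of 21 probe sets of macrophage and lymphocyte markers, called leukocyte markers below, 7 passed that filter. They were of Lyz2, Cd68, Csf1r, Coro1a, Cd4 (50.6 to 525.5) and the B cell gene Cd79a (63.3 to 623.3). Those of Ptprc, a gene of all leukocytes, of Itgam, Adgre1 and Cd8a, and of the B cell gene Cd79b did not pass. Nor did those of the T cell genes Cd3e, Cd3d and Cd3g, and another probe set each of Lyz2 and Cd68. The authors' intensities had been scaled to 1 trimmed mean per array (500.254 to 500.309). Arrays 5 to 8 stood apart from the rest. Their ratio of 3′ to 5′ actin probe signal, a sign of RNA length, was 1.75 on array 5 and 2.18 to 2.63 on arrays 6 to 8, against 1.22 to 1.99 on the other 16 arrays. The same ratio for GAPDH was 1.11 to 1.57 on arrays 5 to 8 and 1.16 and 1.21 on arrays 9 and 10. It was 0.88 to 1.11 on the remaining arrays. The median rank correlation with the other arrays was 0.895 to 0.934 on arrays 5 to 8. It was 0.943 and 0.947 on arrays 9 and 10, and 0.958 to 0.969 on the remaining arrays.

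Member probe sets covered a wide range of intensity. In all, 38 of the 49 passed the filter of a mean intensity of 79.4, 17 of the large and 21 of the small subunit, and they belong to 28 genes. The 11 that did not pass had means of 18.9 to 68.2 and included those of Rpl38, Rpl39, Rps14, Rps15 and Rps20 and of the paralogs Rpl39l and Rps27l. The 38 fell into 21 with means of 1850.4 to 24073 and 17 with means of 88.5 to 781. A value of 1000, chosen after the data had been seen, separates them, and the first are called the bright members below. The bright members are 10 probe sets of the large and 11 of the small subunit, from 19 genes. Levels of different probe sets are not compared as amounts of message, since each probe set has its own response.

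Together the 49 member probe sets made up 2.01% to 2.46% of the summed intensity of an array. In normal mice this share was 2.19% ± 0.116 with the control diet (SD, n = 5) and 2.40% ± 0.0538 with the low phosphate diet. In Hyp mice it was 2.16% ± 0.0916 and 2.21% ± 0.158 in the same order. In normal mice the 5 low phosphate arrays (2.3163% to 2.4494%) lay just above the 5 control arrays (2.0429% to 2.3162%). The brightest probe sets weigh most in this share, such as Rpl41 with a mean of 24073. How often shares of other probe sets separate in this way was not counted. In Hyp mice the ranges of the diets overlapped, at 2.01% to 2.25% on control and 2.03% to 2.46% on low phosphate diet. The large subunit contributed 1.07% ± 0.0493 and 1.15% ± 0.0499 in normal mice on control and low phosphate diet, and the small subunit 1.12% ± 0.0762 and 1.26% ± 0.0556.

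**Figure D1:**
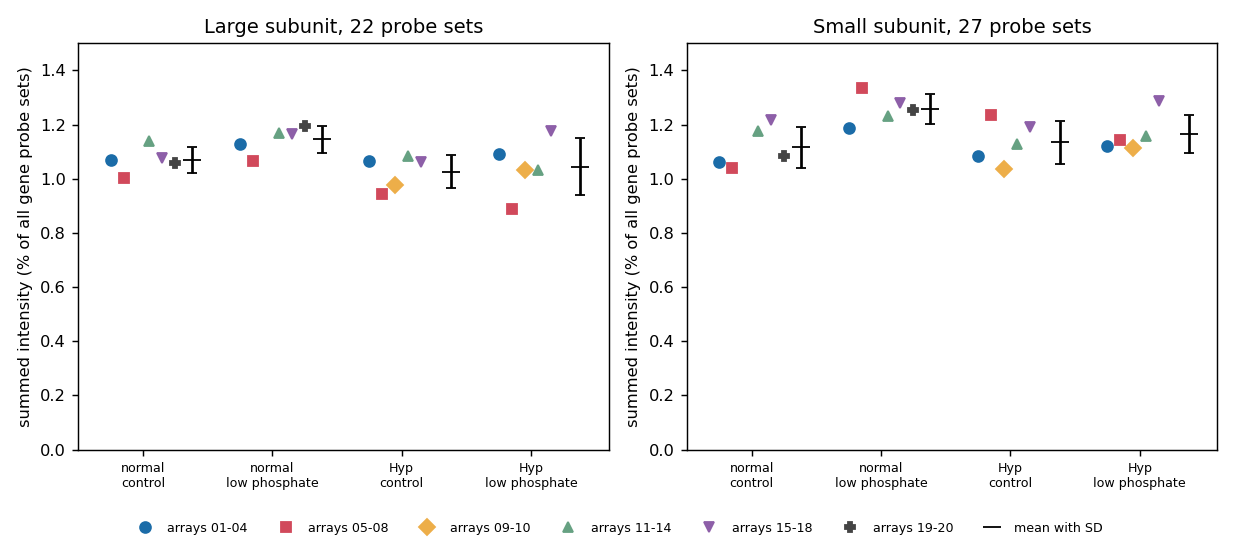
Summed intensity of the large (left) and small (right) subunit probe sets as a percentage of all gene probe sets on each array, by group, with the array set given by the marker and the mean with SD beside each group. The small subunit share was 1.19% to 1.34% in normal mice on low phosphate diet and 1.04% to 1.22% on control diet.

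Diet in normal mice was compared first. No member passed the test (limma, Benjamini-Hochberg adjusted p under 0.05 over 8695 probe sets), where 0.184% of all probe sets did. At an unadjusted p under 0.05 there were 7 of the 38 members (18.4%), 6 of them higher and 1 lower on low phosphate diet, against 8.56% of all probe sets. The log2 difference, low phosphate minus control, was above 0 for 27 of the 38 members with a median of 0.095, against 52.3% of all probe sets with a median of 0.012. Among the 21 bright members it was above 0 for 20, with a median of 0.15 and a range of -0.06 to 0.30. The 1897 other probe sets that were as bright and name no ribosomal protein gene had a median of -0.01, and 47.8% of them were above 0. Rpl37a was the 1 bright member below 0.

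By subunit, the median difference in normal mice was 0.10 for the 10 bright large subunit members and 0.17 for the 11 bright small subunit members. All 11 of the latter and 9 of the 10 former were above 0. The 35 tested probe sets that name a ribosomal protein gene and others, which the rule left out, had a median of 0.14, with 30 above 0. The 17 dim members went both ways, with a median of -0.01 and 7 above 0.

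Within the array sets, the median of the bright members was 0.16 in arrays 1 to 4, 0.22 in arrays 5 to 8, 0.08 in arrays 11 to 14, 0.09 in arrays 15 to 18 and 0.17 in arrays 19 and 20. All tested probe sets had medians of -0.02 to 0.04 in these sets. Each of the 5 pairs of normal arrays thus had a bright member median above that of all probe sets. Of the 38 members, 12 were higher on low phosphate diet in all 4 sets that held every group and 1 was lower, against 10.7% and 11.1% of all probe sets.

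Markers of the kidney and of other cell types were read in the same contrast. Of the 11 kidney marker probe sets 6 were above 0, with a median difference of 0.07 and a range of -0.42 to 0.44. Of them 0 passed the test by limma and 2 had an unadjusted p under 0.05. The summed intensity of the 11 kidney marker probe sets was 88297 to 94174 in the normal low phosphate group. It was 81644 to 87262 in the normal control group, 78969 to 87475 in the Hyp control group and 77134 to 87789 in the Hyp low phosphate group. The range of the normal low phosphate group thus lay above the others. The brightest probe sets weigh most in this sum, such as Kap at 21064 to 35892 over all arrays. How often sums of other probe sets do the same was not counted. The 7 tested leukocyte marker probe sets had a median difference of -0.30 between diets in normal mice, with 2 above 0, and the 4 tested red blood cell marker probe sets one of -0.22, with 1 above 0. In both lists 0 probe sets passed the test by limma and 0 had an unadjusted p under 0.05. Summed over the 21 leukocyte probe sets, intensity ran from 2079 to 2842 on low phosphate and from 2289 to 2654 on control diet. Over the 6 red blood cell probe sets it ran from 8076 to 12887 and from 10585 to 15228. Both pairs of ranges overlapped. The part of these cell types in the ribosomal protein values was not tested.

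Rps18, a protein of the head of the small subunit, had the largest difference among the bright members. In normal mice on control diet its intensities were 9137, 7052, 10185, 10009.7 and 8894 on arrays 1, 5, 11, 15 and 19. On low phosphate diet they were 11094, 10089, 11521, 11373 and 11410.4 on arrays 2, 6, 12, 16 and 20. Every low phosphate array was above its partner in the same set, and the groups overlapped by 1 array of each. The log2 difference was 0.30 (SE 0.09, adjusted p = 0.311 by limma). In Hyp mice Rps18 gave 9797, 7515, 8712, 10140 and 10703 on control diet (arrays 3, 7, 9, 13 and 17) and 10077.5, 6183, 9032, 9713 and 11367 on low phosphate diet (arrays 4, 8, 10, 14 and 18). There the groups overlapped throughout, and the log2 difference was -0.03 (SE 0.09, adjusted p = 0.998 by limma).

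Rps28, a small protein near the messenger RNA exit of the small subunit, had 3 probe sets, and all 3 were higher on low phosphate diet in normal mice. The probe set 100758_at read 6694, 6653, 8980.2, 9467 and 7078 on the control arrays and 8138, 9419.5, 10411, 10059.5 and 9045.5 on the low phosphate arrays, in the order given for Rps18. Its log2 difference was 0.29 (SE 0.10, adjusted p = 0.333 by limma). The brightest, 98085_f_at, had means of 16675 ± 1517 and 19549 ± 3313.5 (SD, n = 5) and a log2 difference of 0.22 (SE 0.09, adjusted p = 0.459 by limma). The dim 98086_r_at had means of 173 ± 50.5 and 261 ± 46.4 and a log2 difference of 0.53 (SE 0.16), with the smallest adjusted p of any member in this comparison (0.293 by limma). In Hyp mice the 3 differences were -0.04, -0.01 and -0.01. The 3 probe sets read the same gene and are not independent.

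Rps3, a small subunit protein at the messenger RNA entry that also takes part in DNA repair, was higher on low phosphate diet in every pair of arrays of either genotype. In normal mice it read 5193, 4988, 6312, 7053 and 5627 on control diet and 6733, 6399, 6459, 7221 and 6334 on low phosphate diet. In Hyp mice it read 5388, 5290.4, 5672, 5793 and 6389 on control diet and 6104, 6305.5, 6095, 6202 and 6861 on low phosphate diet. The groups overlapped in both genotypes because the sets differ in level, while within a set the low phosphate array was always the higher. Its log2 difference was 0.19 (SE 0.08, adjusted p = 0.503 by limma) in normal mice and 0.15 (SE 0.08, adjusted p = 0.998) in Hyp mice.

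Rpl22, a large subunit protein that binds RNA and is not needed for translation in general, had the same sign throughout in its brighter probe set. The probe set 92857_at read 472, 346, 301, 348 and 286 in normal mice on control diet and 659, 429.8, 381, 566 and 343 on low phosphate diet. In Hyp mice it read 448, 280.1, 245, 295 and 344 on control diet and 566, 352, 394, 388 and 386 on low phosphate diet. The low phosphate array was the higher in all 10 pairs, by 0.15 to 0.65 on the log2 scale. Array 2 was the highest of all 20, and the groups overlapped in both genotypes because the sets differ in level.

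The difference of Rpl22 averaged over the genotypes was 0.36 (SE 0.13, adjusted p = 0.306 by limma), which did not pass the test. With the 6 array sets as a block in place of sex and days, the same difference had an SE of 0.06 and an adjusted p of 0.0108 by limma. In that fit 1 of the 38 members passed, where 1.12% of all probe sets did. Without arrays 9, 10, 19 and 20 its adjusted p was 0.0489 at a difference of 0.35. The second probe set of Rpl22, 92856_at, did not follow the first. Its differences were -0.01 (SE 0.30) in normal and 0.50 (SE 0.30) in Hyp mice, it was higher on low phosphate diet in 6 of the 10 pairs, and the correlation of the 2 probe sets over the 20 arrays was -0.17.

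A count over the 10 pairs was added after these values had been seen. Rpl22 (92857_at) and Rps3 were the 2 members of 38 (5.26%) that were higher on low phosphate diet in all 10 pairs, against 0.702% of all probe sets, and 0 members were lower in all 10, against 0.909%. The median member was higher in 7 of 10 pairs and the median probe set in 5. The pairs share the genotype and diet of their arrays with the fit, so this is the same measurement counted in another way.

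**Figure D2:**
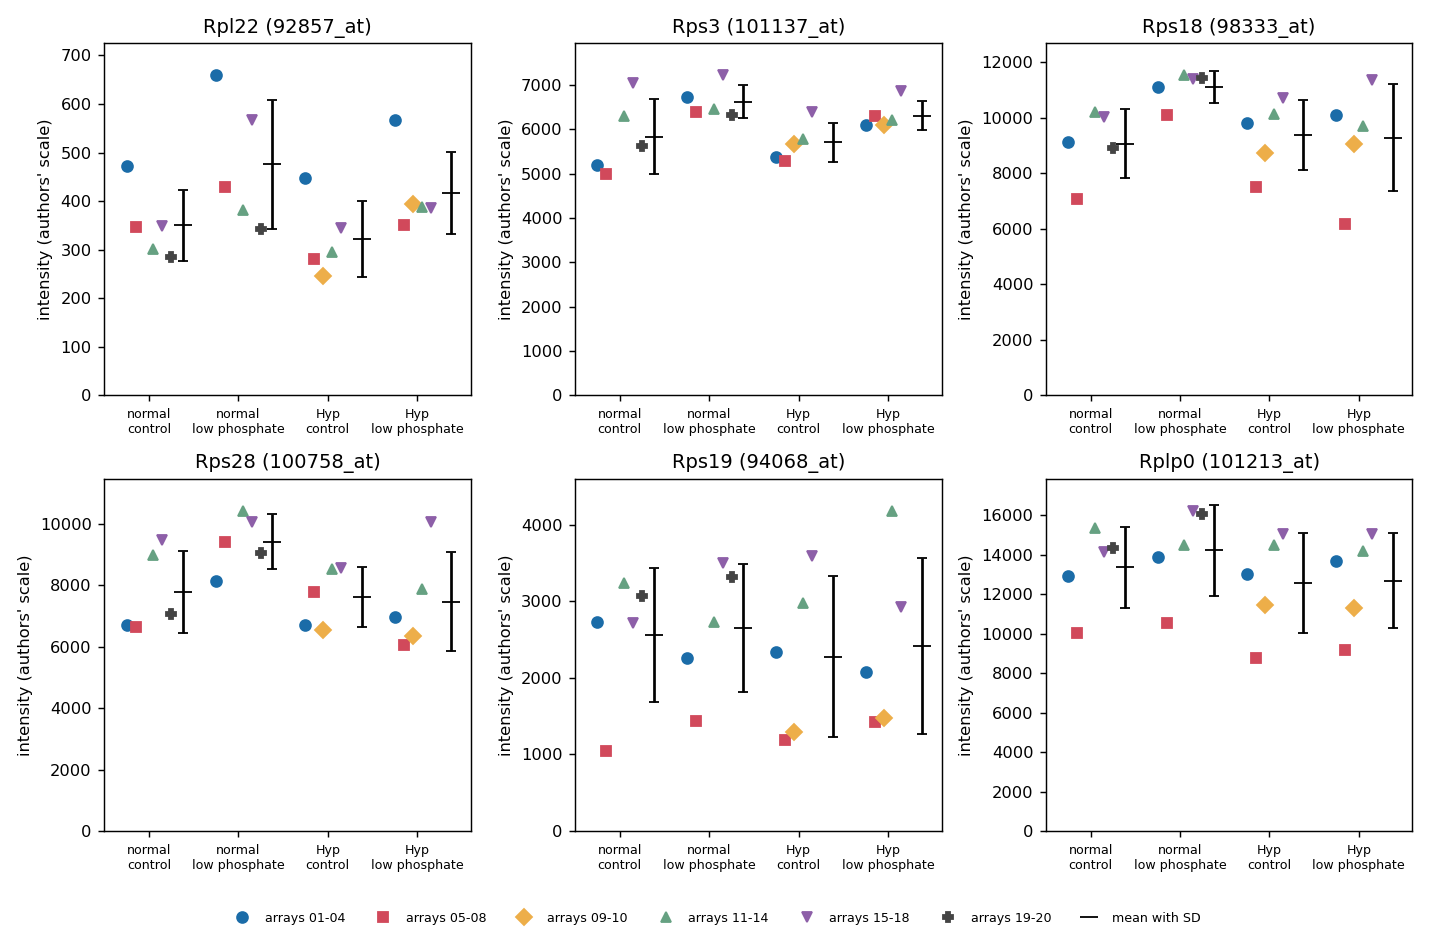
Intensity of 6 members on each of the 20 arrays by group, with the array set given by the marker and the mean with SD (n = 5) beside each group. Rpl22 and Rps3 were higher on low phosphate diet in every set of both genotypes, Rps18 and Rps28 in every set of normal mice, and Rps19 and Rplp0 were low on arrays 5 to 8.

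Other members chosen by role had smaller differences. Rpl41, a very short basic protein of the large subunit, averaged 23382 ± 2066 (SD, n = 5) in the normal control group and 26194 ± 1351 in the normal low phosphate group, a log2 difference of 0.17 (SE 0.10). Rplp0, the base of the ribosomal stalk and a common loading control, averaged 13347 ± 2045 and 14219 ± 2299.6, a difference of 0.09 (SE 0.09). Rps4x (100780_at), encoded on the X chromosome, averaged 9175 ± 491 and 10188 ± 522, a difference of 0.15 (SE 0.09). Rpsa, also known as a laminin receptor, averaged 1851 ± 154 and 2009.6 ± 333, a difference of 0.10 (SE 0.10). Rpl13a, another common reference gene, averaged 705 ± 149.97 and 649 ± 157, a difference of -0.12 (SE 0.13). None of these passed the test, and each pair of groups overlapped.

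The largest negative differences between diets in normal mice were in dim probe sets. Rpl19 (161961_at) differed by -0.97 (SE 0.40, adjusted p = 0.475 by limma), and array 5 alone, at 1208 against 174 to 286 on the other control arrays, set its control mean. The bright probe set of Rpl19, 97483_at, differed by 0.17 (SE 0.10), and the correlation of the pair over the 20 arrays was -0.60. Rpl32 differed by -0.42 (SE 0.25) and Rps13 by -0.24 (SE 0.26). The dim Rps4x probe set 162498_r_at had the largest positive difference, 0.68 (SE 0.34, adjusted p = 0.604 by limma).

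**Figure D3:**
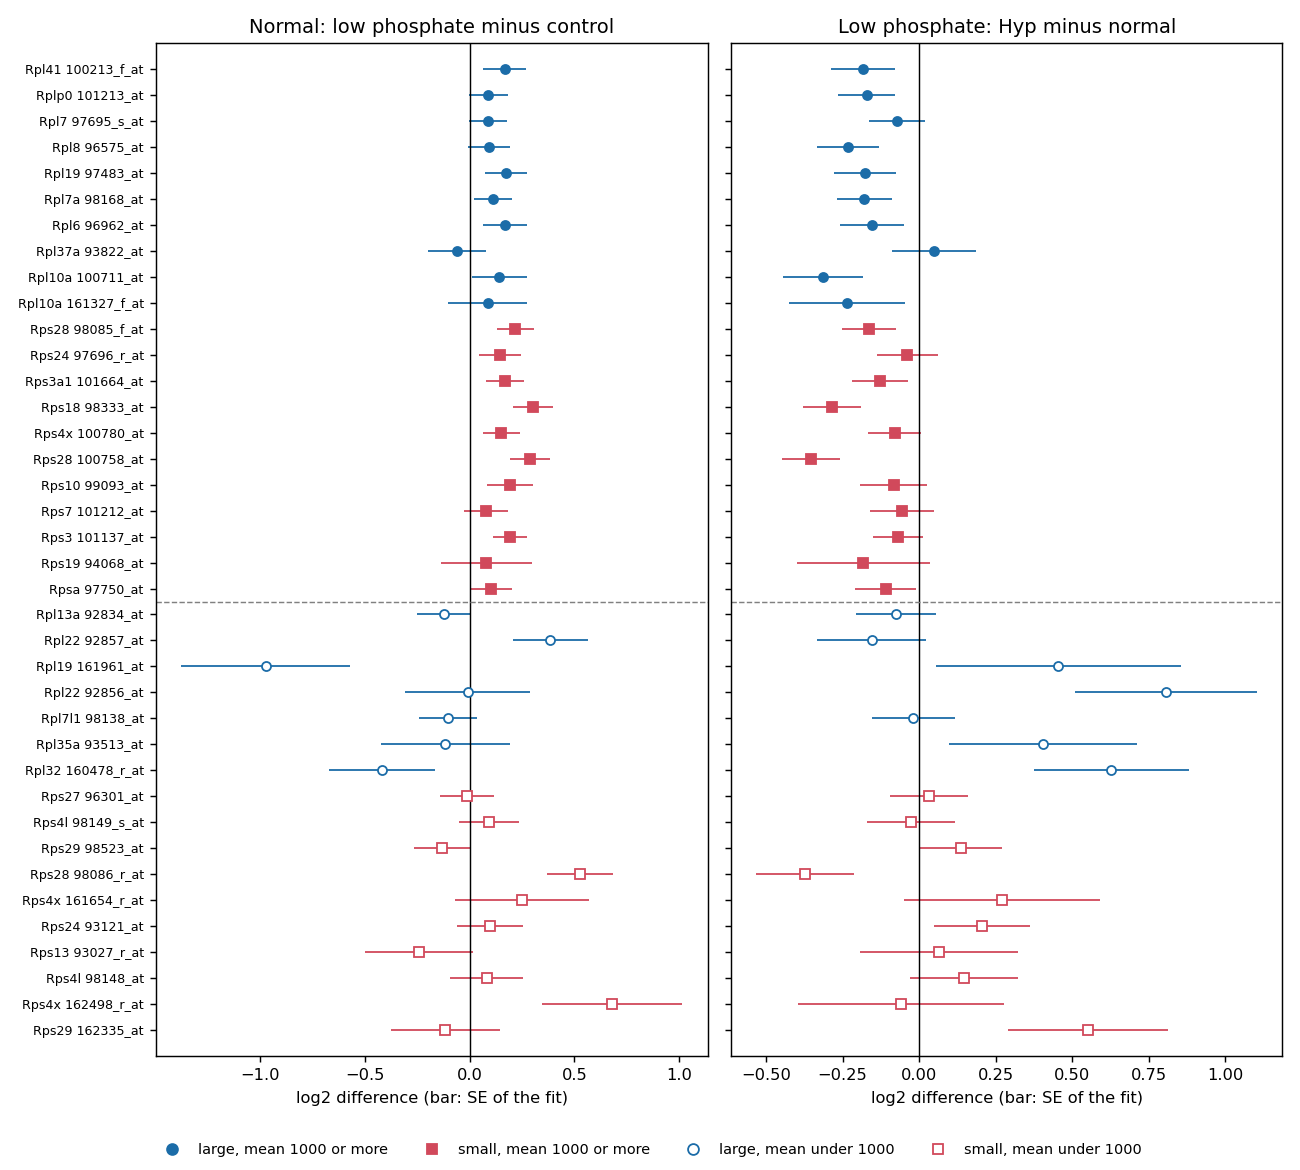
Log2 difference with the SE of the fit for each of the 38 tested members, for diet in normal mice (left) and for genotype on low phosphate diet (right), with large subunit members as circles, small subunit members as squares and bright members filled above the dashed line. On the left 20 of the 21 bright members are above 0, and on the right 20 of 21 are below 0; both sides use the same 5 arrays of normal mice on low phosphate diet.

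Diet in Hyp mice was the next comparison. No member passed the test, where 0.15% of all probe sets did, and 1 of 38 (2.63%) had an unadjusted p under 0.05, against 4.59% of all probe sets. The median difference was 0.04 over the 38 members, with 27 above 0, and 0.04 over the 21 bright members, with 15 above 0. By array set the bright median was 0.04 in arrays 1 to 4, -0.16 in arrays 5 to 8, 0.10 in arrays 9 and 10, -0.02 in arrays 11 to 14 and 0.12 in arrays 15 to 18. The sets did not share a sign. Without array 9 the count of bright members above 0 was 9, and without array 8 it was 21, so single arrays decided it. The largest positive differences were in Rpl35a at 0.66 (SE 0.31), Rpl22 (92856_at) at 0.50 (SE 0.30) and Rps4x (161654_r_at) at 0.50 (SE 0.32). The largest negative differences were in Rpl32 at -0.16 (SE 0.25), Rpl13a at -0.15 (SE 0.13) and Rps13 at -0.08 (SE 0.26).

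The genotypes were compared on control diet. No member passed the test, where 0.253% of all probe sets did, and 0 of 38 had an unadjusted p under 0.05, against 8.55% of all probe sets. The median difference, Hyp minus normal, was -0.02. By subunit it was -0.08 for the large subunit, with 3 of 17 above 0, and 0.03 for the small subunit, with 13 of 21 above 0. The largest positive differences were in Rpl32 at 0.37 (SE 0.25), Rps29 (162335_at) at 0.33 (SE 0.26) and Rpl22 (92856_at) at 0.29 (SE 0.30), and the largest negative ones in Rpl19 (161961_at) at -0.66 (SE 0.40), Rpl35a at -0.37 (SE 0.31) and Rpl10a (161327_f_at) at -0.31 (SE 0.19). Array 9, of this Hyp group, was from a set with no normal array, so on it genotype and array set cannot be told apart.

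On low phosphate diet no member differed between the genotypes by the test, where 0.357% of all probe sets did. At an unadjusted p under 0.05 there were 8 of 38 (21.1%), 3 higher and 5 lower in Hyp, against 9.47% of all probe sets. The median difference was -0.07 over the 38 members and -0.16 over the bright members, of which 1 of 21 was above 0. The as-bright other probe sets had a median of -0.02, with 45% above 0. This comparison shares the arrays of normal mice on low phosphate diet with the diet comparison in normal mice, so the opposite signs are not a second observation. Within the sets the bright median was -0.12 in arrays 1 to 4, -0.28 in arrays 5 to 8, -0.14 in arrays 11 to 14 and -0.00081 in arrays 15 to 18. In arrays 15 to 18, 10 of 21 bright members were above 0.

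Beside this, the 7 leukocyte marker probe sets had a median of 0.16 (6 above 0) and the 4 red blood cell marker probe sets a median of 0.39 (4 above 0) in Hyp against normal mice on low phosphate diet. The 11 kidney marker probe sets had a median of -0.09 there (4 above 0) and a range of -1.28 to 0.65. Of these 11, 1 passed the test by limma, lower in Hyp, where 0.357% of all probe sets passed. At an unadjusted p under 0.05 there were 5 kidney, 2 red blood cell and 1 leukocyte probe sets, against 9.47% of all probe sets. On control diet the medians were -0.02 (leukocyte, 3 above 0), 0.33 (red blood cell, 4 above 0) and -0.07 (kidney, 5 above 0). No probe set of these lists passed the test on that diet, and 2 red blood cell and 2 kidney probe sets had an unadjusted p under 0.05. The part of these cell types in the member values was not tested. Rps28 (100758_at) had the smallest adjusted p of any member, at a difference of -0.35 (SE 0.10, adjusted p = 0.181 by limma). Its Hyp intensities on low phosphate diet were 6961, 6045, 6359.7, 7886 and 10050.2 on arrays 4, 8, 10, 14 and 18, of which 4 lay below every normal array on that diet and array 18 did not. Rps28 (98086_r_at) differed by -0.37 (SE 0.16), Rpl10a (100711_at) by -0.31 (SE 0.13) and Rps18 by -0.28 (SE 0.09, adjusted p = 0.341). Array 10 was from a set with no normal array and was low for Rpl10a (given below). On it genotype and array set cannot be told apart. The largest positive differences were in 3 dim probe sets, Rpl22 (92856_at) at 0.81 (SE 0.30), Rpl32 at 0.63 (SE 0.25) and Rps29 (162335_at) at 0.55 (SE 0.26), with adjusted p of 0.401 to 0.525 by limma.

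Whether the diet difference itself depended on genotype was tested by the interaction, the diet difference in Hyp minus that in normal mice. No member passed, where 0.046% of all probe sets did, and 3 of 38 (7.89%) had an unadjusted p under 0.05, against 3.23% of all probe sets. These were Rps28 (98086_r_at) at -0.53 (SE 0.22), Rps28 (100758_at) at -0.33 (SE 0.14) and Rps18 at -0.33 (SE 0.13), each with an adjusted p of 0.9998 by limma. The other members with the largest interaction were dim, with Rps4x (162498_r_at) at -0.34 (SE 0.48), Rpl19 (161961_at) at 1.11 (SE 0.57), Rpl35a at 0.78 (SE 0.44) and Rpl22 (92856_at) at 0.51 (SE 0.42). The 95% interval of the interaction was -0.62 to -0.05 for Rps18, and for Rpl22 (92857_at) it was -0.57 to 0.49. The median was -0.04 over the members and -0.11 over the bright members, with 4 of 21 above 0. Leaving out 1 array in turn gave bright medians of -0.15 (without array 9) to -0.064 (without array 20). By array set the bright median was -0.17 in arrays 1 to 4, -0.42 in arrays 5 to 8, -0.05 in arrays 11 to 14 and 0.07 in arrays 15 to 18, so the females at 3 days went against the other sets.

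**Figure D4:**
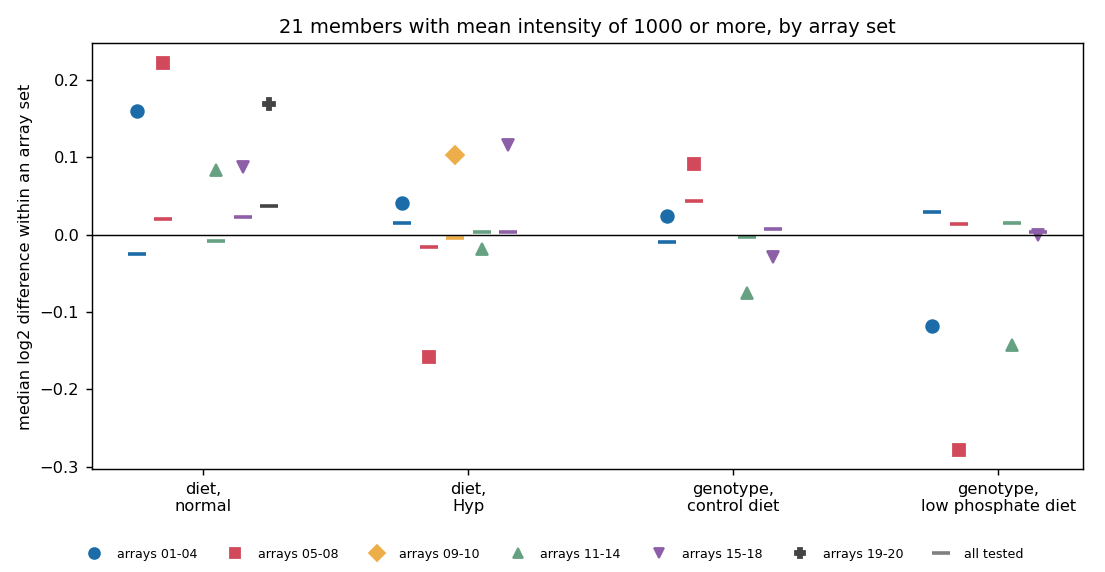
Median log2 difference of the 21 bright members within each array set (markers) and of all tested probe sets in the same set (dashes), for the diet and genotype comparisons. Diet in normal mice is above 0 in all 5 sets (0.08 to 0.22), whereas diet in Hyp mice runs from -0.16 to 0.12.

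Averaged over genotypes, no member passed the test of diet, where 0.472% of all probe sets did, and 30 of 38 were above 0 with a median of 0.09. Averaged over diets, no member passed the test of genotype, where 1.28% of all probe sets did, and 11 of 38 were above 0 with a median of -0.05. At an unadjusted p under 0.05 there were 4 members for diet (10.5%, against 9.75% of all probe sets) and 7 for genotype (18.4%, against 15%). The largest averaged genotype differences were Rpl22 (92856_at) at 0.55 (SE 0.21), Rpl32 at 0.50 (SE 0.18) and Rps29 (162335_at) at 0.44 (SE 0.18), and Rpl10a at -0.27 (161327_f_at, SE 0.13) and -0.25 (100711_at, SE 0.09) and Rps19 at -0.19 (SE 0.15). Arrays 9 and 10 were Hyp only and arrays 19 and 20 normal only, and this fit has no term for the array set. Genotype and array set are therefore partly mixed in these differences. Rps19 and Rpl10a (100711_at) were lower on arrays 9 and 10 than on Hyp arrays 3 and 4 (values given below).

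The rest of the translation machinery was read from gene lists in normal mice, low phosphate minus control, where the median of all probe sets was 0.012. None of the tested probe sets of these lists passed the test in that comparison. Initiation factors, which load the small subunit onto messages, had a median of 0.03 with 22 of 36 above 0. Elongation and release factors had 0.02 with 7 of 11 above 0, and ribosome biogenesis factors 0.05 with 26 of 42 above 0. Other genes with TOP messages had 0.07, with 14 of 21 above 0. That list shares genes with the factor lists, Eif3f and Eef2 among them, so these medians are not independent. Growth signalling genes (Myc, Mtor and their partners) had 0.04, with 11 of 16 above 0. Mitochondrial ribosomal proteins, which build a separate ribosome, had -0.09 with 18 of 67 above 0, proteasome subunits -0.07 with 11 of 42 and respiratory chain subunits -0.07 with 24 of 83.

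On the TOP list 1 gene passed the test for diet averaged over genotypes, where 0.472% of all probe sets did. Gas5, a noncoding RNA gene whose introns hold small nucleolar RNAs and whose transcript starts with a TOP element, was higher on low phosphate diet by 0.40 in probe set 98531_g_at (SE 0.07, adjusted p = 0.0121 by limma). Its difference was 0.47 (SE 0.10, adjusted p = 0.0775) in normal and 0.33 (SE 0.10, adjusted p = 0.761) in Hyp mice. Its other probe set, 98530_at, differed by -0.45 (SE 0.22) in normal mice, so the pair disagreed. Npm1, a nucleolar chaperone on the same list, differed by 0.34 (SE 0.11, adjusted p = 0.336) in normal mice, and Eef2, the translocation factor, by 0.30 (SE 0.12, adjusted p = 0.459). Fau, a ribosomal protein gene outside the symbol rule, differed by -0.01 in normal and 0.36 (SE 0.14) in Hyp mice.

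Members passed the test for days and for sex, each of which cannot be told apart from the array sets. For days, 21 of 38 members passed the test (limma, adjusted p under 0.05), 8 higher and 13 lower at 5 than at 3 days, where 40.9% of all probe sets passed. The largest falls were Rpl10a (161327_f_at) at -0.94 (SE 0.14, adjusted p = 0.000186), Rps19 at -0.92 (SE 0.16, adjusted p = 0.000488), Rpl10a (100711_at) at -0.64 (SE 0.10), Rplp0 at -0.40 (SE 0.07) and Rpl19 (97483_at) at -0.36 (SE 0.08). Rps28 (100758_at, -0.34), Rpl13a (-0.33), Rpl8 (-0.32), Rps28 (98086_r_at, -0.32) and Rps18 (-0.30) followed, and Rpl7l1, Rpsa and Rps3 fell less. The 8 that were higher at 5 days were all dim, namely Rps4x (161654_r_at) at 0.86 (SE 0.24), Rpl19 (161961_at) at 0.84 (SE 0.30), Rpl22 (92856_at) at 0.82 (SE 0.22), Rps24 (93121_at) at 0.75 (SE 0.12), Rpl35a at 0.74 (SE 0.23), Rps4l (98148_at) at 0.68 (SE 0.13), Rpl32 at 0.62 (SE 0.19) and Rps13 at 0.62 (SE 0.19). Within males alone 0 of 38 passed, against 0.069% of all probe sets, and within females alone 18 did (9 up, 9 down), against 32.9%.

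For sex, 8 of 38 passed, 5 higher and 3 lower in females, where 16.6% of all probe sets passed. They were Rpl22 (92856_at, 0.69), Rps13 (0.60), Rps24 (93121_at, 0.37, and 97696_r_at, 0.23) and Rps28 (98085_f_at, 0.25), and, lower in females, Rpl10a (161327_f_at, -0.44, and 100711_at, -0.37) and Rplp0 (-0.21). Leaving out 1 array in turn gave 2 to 8 members that passed for sex, with 2 without array 6, 8 or 14. At 3 days alone 0 passed, against 0.541% of all probe sets, and at 5 days alone 12 passed (7 up, 5 down), against 25.7%. Within males and within 3 days, the comparisons that hold no array of 5 to 8, no member passed. These fits use fewer arrays, and few of all probe sets passed in them (0.069% and 0.541%). Arrays 5 to 8, the females at 5 days, included the 3 arrays with the highest 3′ to 5′ actin ratios. On them sex with days, array set and RNA length cannot be told apart.

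Those 4 arrays differed from the other 16 by member. Rps19, a small subunit protein mutated in Diamond-Blackfan anemia, averaged 1272 ± 192 on arrays 5 to 8 (SD, n = 4) and 2777 ± 759 on the others. Rpl10a, a protein of the large subunit's L1 stalk, averaged 2065 ± 183 against 3932 ± 659.9 in probe set 100711_at and 1187 ± 71.7 against 2870.2 ± 686 in probe set 161327_f_at. Rplp0 averaged 9617 ± 800 against 14088 ± 1403. For Rplp0 (8755 to 10512 against 11284 to 16198) and Rpl10a 100711_at (1879 to 2315 against 2477 to 4794) the ranges did not overlap, which was so for 2 of 38 members in this direction and 0 in the other, against 4.63% and 4.98% of all probe sets.

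Rps19 and Rpl10a were also low on arrays 9 and 10, the Hyp males at 5 days. Rps19 read 1294 and 1479 there and 2079.8 to 2733 on arrays 1 to 4, and Rpl10a (100711_at) read 2477 and 2534 against 3491 to 4326. Arrays 9 and 10 had no normal array in their set, so these low values enter the genotype differences given above. The actin ratios of arrays 9 and 10 were 1.62 and 1.99, and their GAPDH ratios were 1.16 and 1.21. The part of RNA length in these levels was not tested.

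Many dim members went the other way, but not all. Rpl22 (92856_at) averaged 542 ± 232 on arrays 5 to 8 against 185 ± 85.2 on the others, Rpl19 (161961_at) 597 ± 440.4 against 195 ± 95.96, and Rps4x (162498_r_at) 222 ± 115 against 76.1 ± 53.9. Of the 17 dim members 9 had their highest set mean in arrays 5 to 8, and of the 21 bright members 12 had their lowest there. Among all other tested probe sets these shares were 41.2% of the dim and 44.4% of the bright, against 52.9% and 57.1% of the members. In reverse, 4 dim members were lowest there (23.5%, against 32.6% of the dim others). Highest there were 4 bright members (19%, against 29.9% of the bright others). Dim Rpl13a, Rps28 (98086_r_at), Rps4l (98149_s_at), Rpl7l1 and Rpl22 (92857_at) were lower on arrays 5 to 8, with log2 differences of -0.48 to -0.14.

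**Figure D5:**
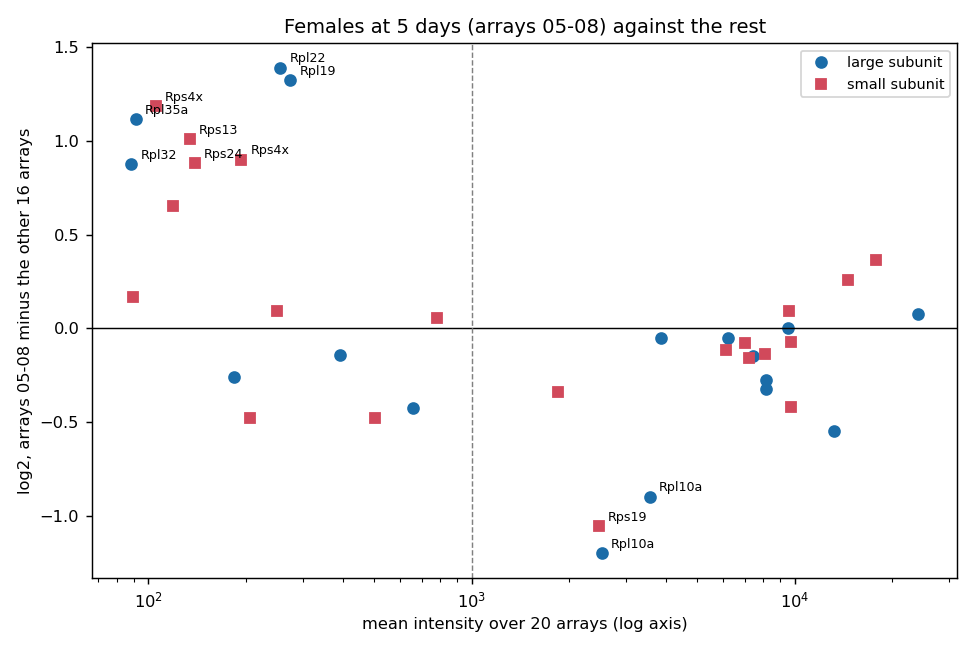
Log2 difference between arrays 5 to 8 and the other 16 arrays for each of the 38 tested members, against the member's mean intensity on a log axis, with the value of 1000 dashed. Rpl10a and Rps19 are the lowest points, from -1.20 to -0.90, and dim probe sets such as those of Rpl22 (1.39) and Rpl19 (1.32) are the highest.

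The balance of the subunits varied most within arrays 5 to 8. The median over the large subunit members minus that over the small subunit members, each as a deviation from the member's own mean on the log2 scale, was 0.09 ± 0.09 in the normal control group and -0.01 ± 0.07 in the normal low phosphate group (SD, n = 5). It was -0.01 ± 0.14 and -0.05 ± 0.17 in the Hyp groups in the same order. It was 0.22 on array 5, -0.12 on array 6, -0.19 on array 7 and -0.35 on array 8. The groups overlapped, and the highest and lowest arrays were both of this set.

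Members differed in how steady they were once group, sex and days were fitted. The median residual SD was 0.13 over the bright members and 0.19 over the 1921 other probe sets that were as bright (24 of which name a ribosomal protein gene and others), and 0.20 over the 38 members against 0.25 over all. The steadiest were Rps3 (0.08), Rps4x (100780_at, 0.10), Rps28 (98085_f_at, 0.10), Rpl7 (0.10) and Rpl7a (0.10). The least steady were dim probe sets, Rpl19 (161961_at, 0.71), Rps4x (162498_r_at, 0.59, and 161654_r_at, 0.56), Rpl35a (0.54) and Rpl22 (92856_at, 0.52).

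The means of the 4 complete array sets were spread most widely for Rps4x (162498_r_at) at 1.60, Rpl22 (92856_at) at 1.51, Rpl10a (161327_f_at) at 1.47, Rpl19 (161961_at) at 1.46 and Rps4x (161654_r_at) at 1.37 on the log2 scale. The median spread was 0.49 over the members and 0.54 over all probe sets.

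Several genes were read by more than 1 probe set, and the probe sets did not always agree. Of the 8 genes with more than 1 tested probe set, 2 had differences of opposite sign for diet in normal mice and 5 for genotype on low phosphate diet. The lowest correlations between probe sets over the 20 arrays were those of Rpl19 (-0.60), Rps4l (-0.46) and Rpl22 (-0.17), while the pair of Rpl10a had 0.96. Rps4x had 5 probe sets, of which 1 was bright. Rps4l and Rpl7l1 are the paralogs that passed the filter. Rps4l differed by 0.09 (98149_s_at, SE 0.14) and 0.08 (98148_at, SE 0.18) between diets in normal mice and Rpl7l1 by -0.10 (SE 0.14), with adjusted p of 0.906 to 0.957 by limma. Ribosomal protein genes have many processed pseudogenes and near copies, so a probe set may also read these.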

How the data were processed

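Per the labels, kidney RNA pooled from 3 mice was hybridised to each of 20 arrays. The deposited values are linear intensities per probe set, and the deposited intensity of every array had been scaled to 1 trimmed mean by the authors, as the values show. Which software did this is not stated by the labels or headers. Of 12488 probe sets, 66 control probe sets were left out; 10833 of the rest name 1 gene, 396 several and 1193 none in the platform annotation. A total of 10817 matched RefSeq.

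The log2 of the intensity plus 38 (the 20th percentile of all values, which shrinks differences of dim probe sets) was fitted in limma 3.58.1 (R 4.3.3) to the 8695 probe sets with a mean of at least 79.4, the 30th percentile, over all 4 groups with sex by days as terms. P-values are two-sided and adjusted by Benjamini-Hochberg over all 8695. They measure the spread between these pools, which the labels do not tie to litters or cages. The fit was tested on simulated data. Python 3.11.15, pandas 2.3.3 and matplotlib 3.10.9 were used for summaries and plots. The number of arrays limits the precision.

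Named in each comparison were members past the threshold (up to 10 in each direction) or, with none, the 3 largest differences each way; further, members chosen by role, the 5 most and least steady, the 5 with the largest spread between sets, and paralogs. The members and lists were chosen with earlier results of these data known. The intensity of 1000, the promoter run rule, the count over 10 pairs and the fits within 1 sex or duration were set after the data had been seen. Alternatives changed the offset, filter, scaling, array weights, terms, arrays and members.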

Additional observations from a re-analysis of the deposited data

Results flagged for a closer look

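For 21 member probe sets and 4 summaries over the members, each of the 4 groups of 5 arrays was examined for a single array far from the other 4, judged by its gap to the nearest array as a share of the group's range. Of 100 groups 19 had such an array. The probe sets had been chosen for large differences in these data or by role, and the same 20 arrays recur in all groups. The count can therefore not be set against a rate by chance. Of these 19, 15 lay in arrays 5 to 8.

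Among bright members, Rpl10a (100711_at) was low on array 6 at 2315 (the other 4 arrays 4281 to 4794), Rps19 was low on array 5 at 1044 (2721 to 3243), and Rpsa was low on array 6 at 1420.3 (2090.5 to 2233). Array 18 was high for Rps4x (100780_at) at 10246 (9334 to 9596.5) and for Rps3 at 6861 (6095 to 6305.5).

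Among dim members the single arrays were all high. Array 6 gave 141 for Rpl32 (24.3 to 55), 524 for Rps4x 161654_r_at (103 to 154), 682 for Rpl22 92856_at (61 to 181) and 238 for Rpl35a (36.6 to 60.2). Array 8 gave 674 for Rps4x 161654_r_at (99.9 to 249.8), 796 for Rpl22 92856_at (169.6 to 336.5), 401 for Rps13 (72 to 92) and 302 for Rpl35a (54.6 to 108). Array 5 gave 1208 for Rpl19 161961_at (174 to 286), and array 7 gave 327.5 for Rps4x 162498_r_at (28.3 to 84.2). Array 4 gave 566 for Rpl22 92857_at (352 to 394), and array 3 gave 128 for Rpl35a (27.4 to 52.4).

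The large minus small subunit median was low on array 8, at -0.35 over all tested members and -0.21 over the bright members.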

How the results depend on the processing

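The number of members that passed stayed at 0 under every setting tried for diet in either genotype, genotype on either diet, the interaction and genotype averaged over diets. For diet averaged over genotypes it was 1 with the array sets as a block and 1 without arrays 9, 10, 19 and 20, in both cases Rpl22 (92857_at). For days it was 17 to 23 when 1 array was left out and 0 in males only. For sex it was 2 to 8 when 1 array was left out and 0 at 3 days only. The median member difference between genotypes on low phosphate diet (-0.07) was -0.030 with quantile normalization, -0.12 with each array centred on its median, -0.12 with the filter at the median, -0.035 with the array sets as a block and -0.16 over bright members. That averaged over diets (-0.05) was -0.10 with centring, -0.022 with no filter, -0.085 with the filter at the median and -0.089 over bright members. The median bright member difference between diets in normal mice was 0.11 to 0.17 when 1 array was left out and 0.094 to 0.15 under the other settings. The median member difference changed sign between settings for the interaction (-0.11 to 0.0016), genotype on control diet (-0.071 to 0.012), days (-0.17 to 0.040) and sex (-0.024 to 0.033). The median bright member difference of the interaction was -0.12 to -0.039 under settings other than leaving out 1 array. The labels' array numbers are unique to each sample and pair none; the array sets pair diets and genotypes, and as a block they gave Rpl22 (92857_at) an adjusted p of 0.0108 by limma for diet averaged over genotypes. For probe sets near the offset, differences are understated.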
